A study of Mus musculus with 28 samples.

Results

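The 8 vascular genes Sox18, Lyl1, Eng, Cldn5, Vwf, Id3, Thbd and Rgs5 were followed in the whole brain of 28 mice, on 1 Affymetrix U74Av2 array per mouse. All 13 probe sets annotated to 1 of these 8 genes alone were taken, of 12422 probe sets on the array, controls left out. Of the 13, 10 passed a filter on low signal that 7350 probe sets passed, and each of the 8 genes had at least 1 such probe set. The genes had been chosen as vascular genes that fall after seizure, from results of these same mice, so the seized and untreated levels below are a description. Counts of model calls on them stand beside the share of all probe sets called, and support nothing.

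The mice were C57BL/6J animals of 3 genotypes, and the brains were taken 1 hour after injected nicotine had caused a seizure, or from mice left untreated. Seized mice comprised 5 alpha7 +/T, 4 beta4 -/- and 3 wild-type animals, and untreated mice comprised 5 alpha7 +/T, 5 beta4 -/- and 6 wild-type animals. The alpha7 +/T mice are heterozygous for the L250T allele (T) of the alpha7 subunit of the nicotinic acetylcholine receptor, the ion channel that nicotine opens, and the beta4 -/- mice (beta4 null below) lack the beta4 subunit. Every group held both sexes. The nicotine dose was set per genotype to reach similar seizures, so dose and genotype cannot be told apart in the seized mice. Injected mice without a seizure are not among the samples used here, and nicotine, injection and seizure cannot be told apart either. All 5 seized alpha7 +/T mice were 8 weeks old, and the other 7 seized mice were 7 or 8 weeks old. Of the 16 untreated mice, 8 were 6 weeks old (4 alpha7 +/T, 1 beta4 null and 3 wild-type), and the others were 7 to 9 weeks old.

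The wall of a brain vessel has endothelial cells on the inside, sealed by tight junctions into the blood-brain barrier, and mural cells (pericytes and smooth muscle) wrapped around them. Sox18 and Lyl1 are transcription factors of endothelial cells, Eng (endoglin) is a co-receptor for BMP and TGF-beta ligands, and Id3 is a target gene of BMP signalling that blocks bHLH factors. Cldn5 is the claudin of brain endothelial tight junctions. Vwf (von Willebrand factor) and Thbd (thrombomodulin) act on opposite sides of haemostasis, and Rgs5, a regulator of G protein signalling, marks pericytes. In whole brain RNA, fewer cells of a type and less RNA per cell cannot be told apart.

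The arrays fell into 2 classes by their Gapdh controls, as the signal of the 3 prime probe set divided by that of the 5 prime one. In 9 arrays, called low-ratio here, the log2 of this ratio lay between -0.478 and 0.0961, and in the 19 high-ratio arrays it lay between 1.13 and 2.57. The low-ratio arrays came from alpha7 +/T mice (3 seized, 2 untreated) and beta4 null mice (2 seized, 2 untreated), and from no wild-type mouse. Of 51 endothelial markers listed, 41 had a probe set and 27 passed the filter. Their summed signal per mouse was 6762 to 7665 in seized mice and 6793 to 9467 in untreated mice. The highest sums were in untreated alpha7 +/T mice (7368 to 9467). These sums include Eng, Cldn5, Vwf and Thbd, which were chosen for a fall after seizure. The sums are therefore no separate gauge of endothelial content. Of 24 mural markers, 18 had a probe set and 11 passed, with sums of 866 to 1312 in seized mice and 814 to 1222 in untreated mice. Mural sums moved with array class: they averaged 1184 on low-ratio and 928 on high-ratio arrays. The mural sums include Rgs5, whose highest values were all on low-ratio arrays, so this shift is in part that of Rgs5. Rgs5 was at most 188 on any array, less than the distance between these averages, so other mural markers contributed too. The defining markers Pecam1 and Cdh5 passed the filter, and Pdgfrb, Tek, Abcc9 and Des did not.

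The promoters of 4 of the genes are shown to set the endothelial genes that were lower after seizure beside the pericyte gene that was not. Each runs from 250 bases before the annotated start of the gene to 50 after it, 5′ to 3′, from RefSeq on GRCm38.p6. Capitals mark AGGAAG or CGGAAG, forms of the sites bound by ETS factors, and AGATAA, a form of GATA sites, on either strand. Shorter stretches such as GGAA are not marked, and the Rgs5 window holds GGAA too. Sequences of 5 of the 8 genes were matched. Lyl1 is at chr8:84701207-84701506, Eng at chr2:32646345-32646644, Cldn5 at chr16:18776597-18776896 and Rgs5 at chr1:169655251-169655550, all on the plus strand.
Lyl1: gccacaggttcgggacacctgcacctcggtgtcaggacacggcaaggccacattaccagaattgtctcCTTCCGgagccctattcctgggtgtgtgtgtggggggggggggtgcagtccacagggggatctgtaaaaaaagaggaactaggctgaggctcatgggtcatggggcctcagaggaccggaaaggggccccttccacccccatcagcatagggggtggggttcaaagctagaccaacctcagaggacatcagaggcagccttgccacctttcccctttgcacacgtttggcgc
Eng: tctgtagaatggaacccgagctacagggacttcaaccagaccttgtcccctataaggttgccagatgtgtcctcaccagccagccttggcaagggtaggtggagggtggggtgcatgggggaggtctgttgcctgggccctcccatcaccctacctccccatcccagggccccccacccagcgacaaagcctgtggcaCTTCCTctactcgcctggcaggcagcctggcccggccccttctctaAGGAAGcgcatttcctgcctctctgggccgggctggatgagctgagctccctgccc
Cldn5: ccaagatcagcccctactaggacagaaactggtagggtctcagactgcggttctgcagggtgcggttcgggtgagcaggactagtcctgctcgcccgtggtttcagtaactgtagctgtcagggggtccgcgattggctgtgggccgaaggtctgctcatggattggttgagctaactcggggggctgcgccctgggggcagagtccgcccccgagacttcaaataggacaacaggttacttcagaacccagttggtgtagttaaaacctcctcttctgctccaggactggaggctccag
Rgs5: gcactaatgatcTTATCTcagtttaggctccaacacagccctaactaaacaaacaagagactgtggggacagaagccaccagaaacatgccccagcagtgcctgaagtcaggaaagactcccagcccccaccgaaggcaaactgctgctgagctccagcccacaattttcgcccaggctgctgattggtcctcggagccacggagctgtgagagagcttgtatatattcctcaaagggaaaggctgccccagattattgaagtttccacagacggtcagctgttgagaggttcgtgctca

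With positions counted from the start of the gene, Lyl1 held CGGAAG once, on the other strand at -182, and Eng held AGGAAG at -52 on the other strand and at -6. In the Rgs5 window AGATAA occurred once, on the other strand at -238. Cldn5 held none of the 3 motifs. Id3, the fifth gene matched, held AGGAAG at -209 on the other strand and at -155. Of 32851 promoter windows of the same length, 35.4% held AGGAAG, 16.9% CGGAAG and 11.2% AGATAA. The SOX motif ACAATG, in 12.6% of all windows, was in none of the 5, and neither was GGCGCC, a BMP response element, in 11.9%. GC content was 60% in Lyl1, 63.3% in Eng, 58.3% in Cldn5, 60% in Id3 and 52.3% in Rgs5, against a median of 52.7% over all windows.

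**Figure D1:**
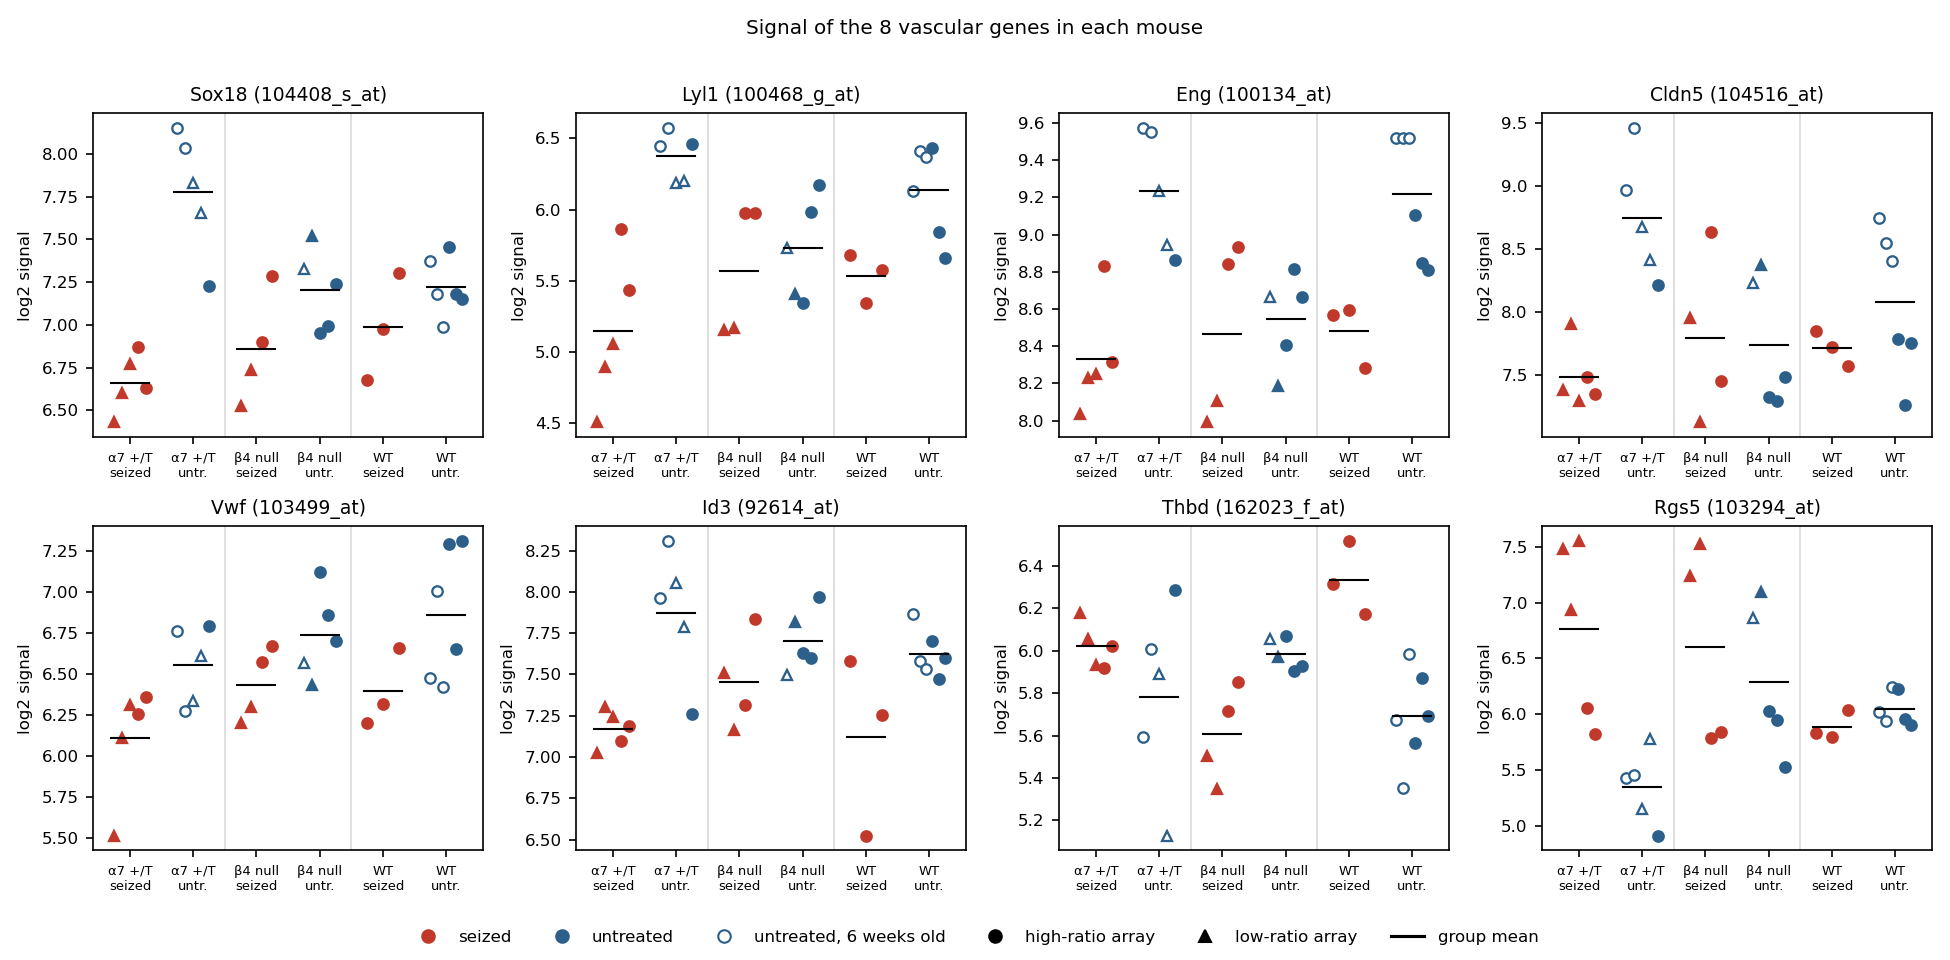
Log2 signal of the 8 genes (brightest probe set of each) in every mouse, seized (red) left of untreated (blue) within each genotype. Open symbols are 6-week-old untreated mice, triangles are low-ratio arrays, circles are high-ratio arrays and bars are group means; the 7 highest Rgs5 values are triangles, and the highest Eng and Cldn5 values are open symbols.

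Averaged over the 3 genotypes with equal weight, 6 of the 8 genes were lower in seized than in untreated mice, by 1.32-fold to 1.58-fold. Thbd and Rgs5, chosen with them, were not lower on average. By limma, 4 of the 8 genes (5 of 10 probe sets) lay below with an adjusted p under 0.05, where 0.0816% of all probe sets tested did. At an unadjusted p under 0.05 in either direction, all probe sets gave 8.64%. Since the choice of the genes used this contrast, nothing is read from that count. Sox18 kept its call in 12 of 14 alternative settings, Eng in 9, and Lyl1 and Id3 in 7 each. With age as a covariate, and likewise with median centring, Sox18 alone was called, and none of the 8 genes was among mice of 7 weeks or older or on high-ratio arrays alone. Mice of 7 weeks or older included only 1 untreated alpha7 +/T mouse, so averages over them rest on that mouse for this genotype. The median change of the 8 genes over all mice was -0.51 on the log2 scale, and that of all probe sets was 0.0122.

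Sox18, a SoxF transcription factor needed for vessel development, had signals of 86, 97, 109, 117 and 99 in seized alpha7 +/T mice, against 284, 262, 227, 202 and 150 in untreated ones (brighter probe set). Every seized alpha7 +/T mouse was below every untreated one. Seized beta4 null mice had 92, 107, 119 and 156, against 160, 184, 124, 127 and 151 in untreated ones, and these groups overlapped. Seized wild-type mice had 103, 126 and 158, against a lowest, median and highest of 127, 145 and 176 in untreated ones, which also overlapped. The averaged change was -0.57 ± 0.10 (log2, SE), or 1.48-fold lower, and 10 of 12 seized mice were below the mean of their untreated genotype. Over the 2 mutant genotypes alone, the change was -0.966 on low-ratio and -0.515 on high-ratio arrays.

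The second Sox18 probe set followed the first over the 28 arrays (Pearson r = 0.779, a description over mice that share groups). Seized alpha7 +/T mice had 67, 87, 86, 94 and 103, against 137, 189, 149, 158 and 119 in untreated ones. Seized beta4 null mice had 65, 79, 66 and 66, against 116, 115, 94, 88 and 109 in untreated ones. In both of these genotypes the groups did not overlap, and on this probe set all 12 seized mice were below the mean of their untreated genotype. Seized wild-type mice had 99, 90 and 109, against a lowest, median and highest of 103, 114 and 146 in untreated ones, with an overlap. The averaged change was -0.54 ± 0.09, or 1.46-fold lower.

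Lyl1, a bHLH factor of endothelial and blood cells, had 23, 30, 33, 58 and 43 in seized alpha7 +/T mice, against 87, 95, 73, 73 and 88 in untreated ones. These groups did not overlap, and the lowest 3 values were on low-ratio arrays. Seized beta4 null mice had 36, 36, 63 and 63, against 53, 42, 41, 63 and 72 in untreated ones, and the groups overlapped, with the lowest pair on low-ratio arrays. Seized wild-type mice had 51, 41 and 48, against a lowest, median and highest of 51, 76 and 86 in untreated ones, which overlapped at their edges. The averaged change was -0.66 ± 0.15 (1.58-fold lower), with 10 of 12 seized mice below their untreated mean, and it was -0.435 on high-ratio arrays alone. Its second probe set averaged a signal of 8.05, did not pass the filter and did not follow the first (r = 0.178).

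Among the BMP genes, Eng had 262, 300, 305, 456 and 318 in seized alpha7 +/T mice, against 762, 751, 601, 493 and 466 in untreated ones. Seized wild-type mice had 379, 386 and 311, against a lowest, median and highest of 449, 642 and 735 in untreated ones. In both genotypes every seized mouse was below every untreated one. Eng was the only one of the 8 genes lower without overlap in wild-type mice, where 1.7% of all probe sets were. Seized beta4 null mice had 254, 276, 459 and 488, against 407, 291, 339, 451 and 405 in untreated ones, so that seized mice were both the lowest and the highest. The lower pair of seized beta4 null mice was on low-ratio and the higher pair on high-ratio arrays. The averaged change was -0.57 ± 0.12 (1.49-fold lower), and -0.341 among mice of 7 weeks or older.

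Id3 had 130, 158, 151, 137 and 146 in seized alpha7 +/T mice, against 250, 317, 265, 221 and 154 in untreated ones. The only untreated alpha7 +/T mouse within the seized range, at 154, was also the only one of 8 weeks. In seized beta4 null mice the signals were 182, 144, 160 and 229, against 180, 226, 198, 194 and 251 in untreated ones, and seized wild-type mice had 192, 92 and 153, against a lowest, median and highest of 178, 193 and 234. The groups overlapped in each genotype. Averaged over genotypes, the difference was -0.48 ± 0.11 (1.4-fold lower) with 11 of 12 seized mice below their untreated mean, and it was -0.286 among mice of 7 weeks or older.

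Cldn5, the tight junction gene, had 167, 239, 157, 179 and 163 in seized alpha7 +/T mice, against 502, 704, 408, 341 and 297 in untreated ones. These did not overlap, and the change of -1.26 ± 0.29 (2.4-fold lower) was the most negative of the 8 genes in any genotype. In seized beta4 null mice the signals were 247, 139, 398 and 175, against 300, 331, 161, 157 and 179 in untreated ones, a change of 0.05 ± 0.31. Seized wild-type mice had 231, 211 and 191, against a lowest, median and highest of 154, 280 and 428 in untreated ones. Among the untreated wild-type mice, the older ones had 221, 154 and 215, and the 3 mice of 6 weeks had 428, 374 and 338, the highest values. Averaged over genotypes, the difference was -0.53 ± 0.18 (1.44-fold lower), and among mice of 7 weeks or older it was -0.149.

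Over all 16 untreated mice, those of 7 weeks or older averaged 214 ± 67 for Cldn5 and those of 6 weeks 424 ± 129 (SD, n = 8 each). For Eng the means were 427 ± 80.9 in the older mice and 652 ± 136 in the 6-week-old ones. Of the 8 young mice all but 1 are alpha7 +/T or wild-type and share a title prefix, so age, prefix and genotype mix in these means, which were not tested. Vwf was at 122 ± 26.9 in the older mice and 95.2 ± 16.7 in the 6-week-old ones. With age as a covariate the averaged change was -0.391 for Cldn5, -0.455 for Eng and -0.449 for Vwf.

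Of the haemostasis genes, Vwf, the multimer that tethers platelets, had 46, 69, 79, 76 and 82 in seized alpha7 +/T mice, against 108, 77, 81, 98 and 111 in untreated ones. In seized beta4 null mice the signals were 73, 79, 95 and 102, against 95, 86, 139, 116 and 104 in untreated ones, and seized wild-type mice had 74, 80 and 101, against a lowest, median and highest of 86, 115 and 159. The groups overlapped in every genotype. All 12 seized mice were nevertheless below the mean of their untreated genotype, and the changes of -0.45 ± 0.20, -0.30 ± 0.21 and -0.47 ± 0.22 in alpha7 +/T, beta4 null and wild-type mice differed by less than their errors. Averaged over genotypes, the difference was -0.40 ± 0.12 (1.32-fold lower). The other Vwf probe set averaged 5.96 and did not pass the filter.

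Thbd, the endothelial receptor that turns thrombin to an anticoagulant, had 80, 92 and 72 in seized wild-type mice, against a lowest, median and highest of 41, 51 and 63 in untreated ones. In seized beta4 null mice the signals were 45, 41, 53 and 58, against 67, 63, 67, 60 and 61 in untreated ones. Thbd was thus above all untreated mice in every seized wild-type mouse and below all of them in every seized beta4 null mouse. Seized alpha7 +/T mice had 73, 67, 61, 61 and 65, against 48, 64, 59, 35 and 78 in untreated ones, with overlap. Averaged over genotypes, the difference was 0.17 ± 0.11, and it was -0.00141 among mice of 7 weeks or older. The second Thbd probe set averaged 25.9, did not pass the filter and did not follow the first (r = 0.235). On it, seized and untreated mice overlapped in both wild-type and beta4 null mice.

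Rgs5, the pericyte marker, had 179, 122, 188, 67 and 56 in seized alpha7 +/T mice, against 43, 44, 35, 55 and 30 in untreated ones (brighter probe set). These groups did not overlap, with the seized mice higher, and the change was 1.43 ± 0.35. In seized beta4 null mice the signals were 151, 184, 55 and 57, against 117, 136, 65, 62 and 46 in untreated ones, and seized wild-type mice had 57, 55 and 66, against a lowest, median and highest of 60, 64 and 76. On high-ratio arrays no Rgs5 value exceeded 75.8, and the 7 values above it, 117 to 188, were all on low-ratio arrays, 5 of them from seized mice. The change averaged over 3 genotypes was 0.52 ± 0.21, and 0.164 on high-ratio arrays. Over the 2 mutant genotypes alone it was 1.13 on low-ratio and 0.327 on high-ratio arrays.

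The second Rgs5 probe set, of lower signal, had r = 0.807 with the first over 28 arrays. Seized alpha7 +/T mice had 110, 76, 99, 21 and 7, against 3, 7, 22, 18 and 1 in untreated ones, and unlike on the first probe set these groups overlapped. In wild-type mice the seizure change was 0.68 ± 1.26 on the second probe set and -0.16 ± 0.39 on the first. All 8 values above 20.8 were on low-ratio arrays. Within the high-ratio class, the first probe set had 67 and 56 in seized alpha7 +/T mice, against 43, 44 and 30 in untreated ones.

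In beta4 null mice the seizure change of 4 endothelial genes differed in sign between the array classes. On low-ratio arrays of that genotype the seizure change was -0.79 for Sox18, -0.76 for Cldn5, -0.40 for Lyl1 and -0.38 for Eng, from 2 seized and 2 untreated mice. On high-ratio arrays, from 2 seized and 3 untreated mice, it was 0.03 for Sox18, 0.67 for Cldn5, 0.14 for Lyl1 and 0.26 for Eng. The second Sox18 probe set was lower in both classes, at -0.69 on low-ratio and -0.55 on high-ratio arrays. So were Vwf, at -0.25 and -0.27, and Id3, at -0.32 and -0.16. In alpha7 +/T mice Sox18, Cldn5, Lyl1 and Eng were lower in both classes. The changes were -1.14, -1.02, -1.37 and -0.92 on low-ratio arrays, from 3 seized and 2 untreated mice. On high-ratio arrays, from 2 seized and 3 untreated mice, they were -1.06, -1.46, -0.84 and -0.76.

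**Figure D2:**
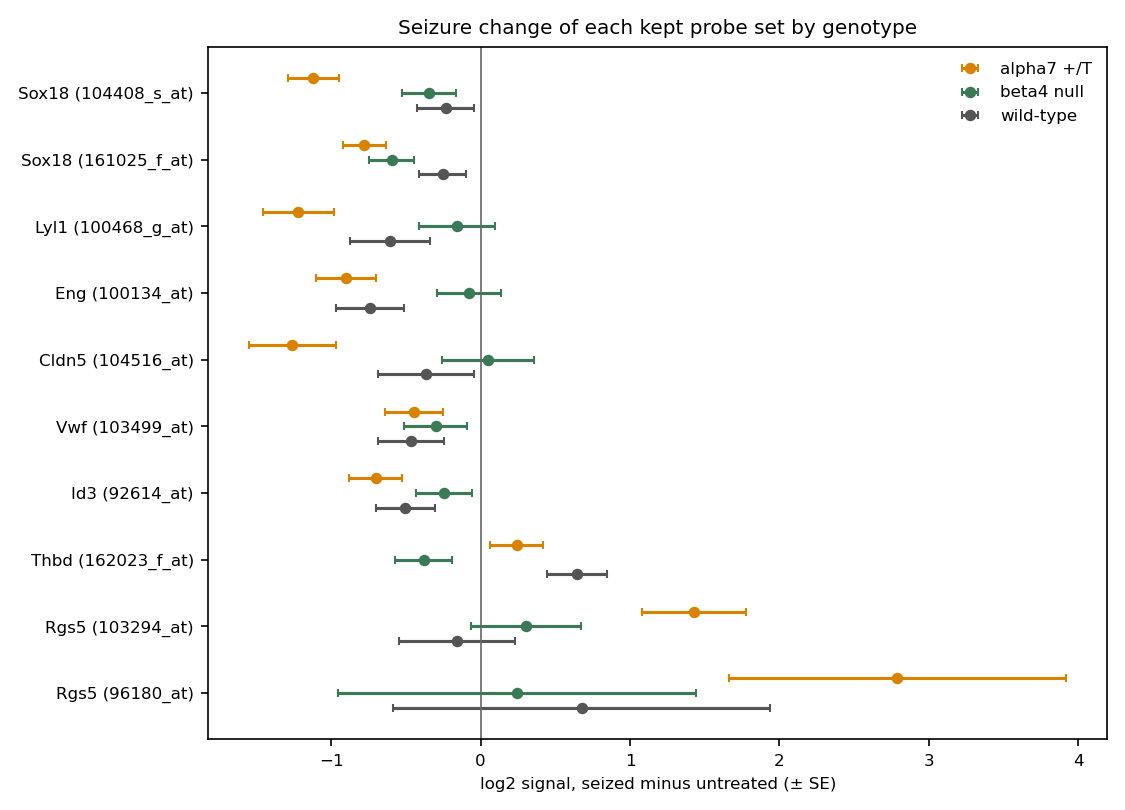
Seizure change of the 10 probe sets that passed the filter, as seized minus untreated log2 signal with SE, in alpha7 +/T (orange), beta4 null (green) and wild-type (grey) mice. The 7 probe sets of Sox18, Lyl1, Eng, Cldn5, Vwf and Id3 lie left of 0 in alpha7 +/T and wild-type mice, and those of Thbd and Rgs5 do not follow them.

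By genotype, with each gene read on its brightest probe set that passed the filter, the 6 genes other than Thbd and Rgs5 were lower in all of alpha7 +/T mice, wild-type mice and, Cldn5 apart, beta4 null mice. In alpha7 +/T mice 4 of the 8 genes were lower without overlap, where 1.32% of all probe sets were, and 5 of 8 lay below with an adjusted p under 0.05, where 1.09% did. With age as a covariate 1 of these 5 was called (Sox18), and none was among mice of 7 weeks or older or on high-ratio arrays alone. That age subset held 1 untreated alpha7 +/T mouse. Rgs5 lay above with an adjusted p under 0.05, where 1.71% did (2.8% in either direction), and without overlap, where 1.63% were. This call was also lost with age as a covariate and on high-ratio arrays alone. The second Rgs5 probe set did not pass (limma adjusted p = 0.169). In wild-type mice 1 of 8 was lower (Eng) and 1 was higher (Thbd, where 2.53% of all probe sets were) without overlap, and in beta4 null mice 1 of 8 was (Thbd), where 0.599% of all probe sets were, with none of the 8 higher (0.422% of all). The second Sox18 probe set was also lower there without overlap. No gene of the 8 passed the threshold in wild-type or beta4 null mice, where 4 and 1 of 7350 probe sets did (0.0544% and 0.0136%), all of them higher. At an unadjusted p under 0.05 the counts were 5 of 8 in wild-type mice, where 4.24% of all probe sets were, and 0 of 8 in beta4 null mice, where 1.74% were. Over all 10 probe sets the beta4 null count was 1, the second Sox18 probe set. Again these counts describe genes chosen on this contrast.

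Whether the seizure change differed between genotypes was tested for all probe sets with an F test in the limma fit, which called 0.0272% of them. None of the 10 probe sets passed. The smallest adjusted p was 0.357 for Sox18, with an F of 7.47, then 0.385 for Thbd (F = 7), and 0.493 for both Cldn5 and Rgs5. At an unadjusted p under 0.05, 6 of the 10 probe sets passed, where 7.66% of all probe sets did. These genes were chosen on the seizure changes that the F test compares, so its values are given as a description.

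The genes were not chosen on the untreated levels of the genotypes, but that comparison is not independent of the choice, since the same untreated mice are the baseline of the seizure changes. Untreated alpha7 +/T mice had more Sox18 signal than untreated wild-type mice, at 225 ± 52.6 against 150 ± 17.6 (SD, n = 5 and 6). The difference was 0.56 ± 0.16 on the log2 scale (95% interval 0.223 to 0.893, limma adjusted p = 0.0277), and 5 of 5 alpha7 +/T mice were above the wild-type mean. The second Sox18 probe set was higher by 0.33 ± 0.14 and did not pass (adjusted p = 0.0854). Sox18 was 1 of 10 probe sets to pass in a contrast that called 16% of all probe sets, as 7.73% higher and 8.29% lower, so its share did not exceed the background.

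That Sox18 difference had an adjusted p under 0.05 in 6 of 13 alternative settings, with a range from 0.0191 to 1. It missed the threshold, for example, with median centring (0.318, adjusted p = 0.188) and with age as a covariate (0.536, adjusted p = 0.0506). Among mice of 7 weeks or older, which leaves 1 untreated alpha7 +/T mouse, it was -0.0335. Leaving out 1 of 5 mice ended the call, with adjusted p of 0.0544 to 0.0834: wild-type mouse 3 or alpha7 +/T mouse 1, 2, 3 or 4.

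Cldn5 averaged 450 ± 161 in untreated alpha7 +/T mice and 288 ± 107 in untreated wild-type mice, a difference of 0.66 ± 0.28 that did not pass (adjusted p = 0.0905). Rgs5 averaged 41.4 ± 9.4 in untreated alpha7 +/T mice and 66.5 ± 7.09 in untreated wild-type mice. Every one of these alpha7 +/T mice was below every wild-type mouse, as for 2.33% of all probe sets, and the difference of -0.71 ± 0.33 did not pass (adjusted p = 0.129). On the second Rgs5 probe set the difference was 0.29 ± 1.08 (adjusted p = 0.859), with overlap. Lyl1, Vwf and Id3 differed by 0.23 ± 0.23, -0.31 ± 0.19 and 0.25 ± 0.17, and Eng by 0.01 ± 0.19, with adjusted p of 0.244 to 0.966.

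Between untreated beta4 null and untreated wild-type mice none of the 10 probe sets passed by limma, and 1 did at an unadjusted p under 0.05, where 12.9% of all probe sets did and 0.0136% passed after adjustment. That one was Eng, at 379 ± 63.2 in beta4 null mice and 610 ± 140 in wild-type mice (SD, n = 5 and 6). Its difference was -0.67 ± 0.19 (adjusted p = 0.336), and 5 of 5 beta4 null mice were below the wild-type mean. The 95% interval, -1.07 to -0.276, left out 0, so the missed threshold does not show equal levels. No probe set of the 8 genes was without overlap in this contrast, where 0.612% of all lay above and 0.476% below. Untreated beta4 null mice had Eng values of 291 to 451, within the range of seized mice (254 to 488).

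Whether endothelial and pericyte genes moved together from mouse to mouse was asked after subtracting the mean of each group within each array class. Mean shifts with seizure or array class could then not carry the relation. Differences between mice within a group and class, such as in the Gapdh ratio, were left in. A two-sided permutation test used 100000 resamples within each group of each array class. By this test none of 28 pairs of the 8 genes passed after adjustment over the pairs, and 2 did at an unadjusted p under 0.05. Lyl1 and Eng had the highest correlation, r = 0.621 (permutation p = 0.00556, adjusted 0.151; Spearman rho = 0.539, permutation p = 0.0242, adjusted 0.225). Eng and Cldn5 followed with r = 0.595 (permutation p = 0.0108, adjusted 0.151; rho = 0.561, permutation p = 0.0109, adjusted 0.225). Without the 2 mice farthest from the median of the first gene these were 0.617 and 0.644. Age still varied within groups. With age also removed, a step added after seeing the data, Lyl1 with Eng had r = 0.7 and Eng with Cldn5 0.476. Neither passed (permutation adjusted p = 0.0599 for each).

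On its brighter probe set, no correlation of Rgs5 with another of the 8 genes passed within groups, also before adjustment. Its 7 correlations ran from -0.429 with Thbd to 0.33 with Sox18, with a median of 0.0165. The second Rgs5 probe set, given without a test, had r = 0.503 with Cldn5 and 0.102 with Sox18, where the first had -0.0447 and 0.33. The 15 pairs among Sox18, Lyl1, Eng, Cldn5, Vwf and Id3 had a median r of 0.267, and 11 of them were positive. All 4 negative ones involved Vwf, with -0.374 against Eng and -0.386 against Cldn5. Thbd was negative with each of these 6 genes, from -0.446 to -0.167.

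With nothing subtracted, all 15 pairs of those 6 genes were positive, with a median of 0.593, and all 7 pairs of Rgs5 were negative, with a median of -0.438. These raw values hold the group differences that chose the genes and the array classes, so they are given as a description only. Lyl1 with Eng reached 0.883 and Lyl1 with Rgs5 reached -0.758. On the 19 high-ratio arrays alone, with group means subtracted, the Rgs5 pairs had a median of 0.25, and on the 9 low-ratio arrays -0.496. With group but not class means subtracted, 1 pair passed, Lyl1 with Eng (r = 0.773, permutation adjusted p = 0.0028).

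**Figure D3:**
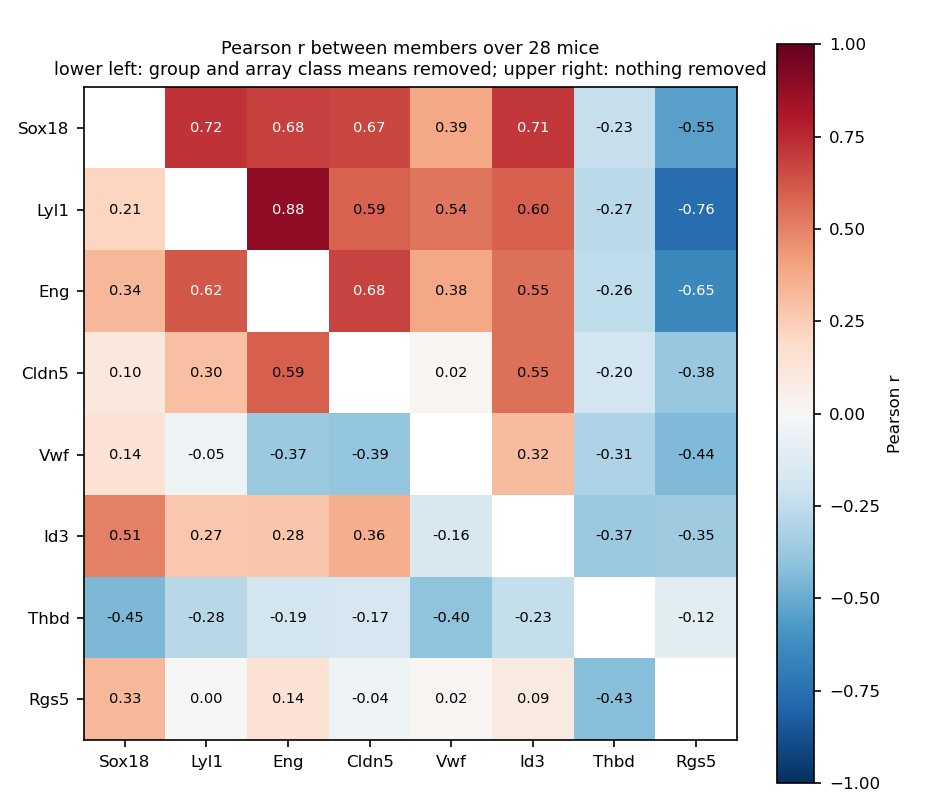
Pearson r between the 8 genes over 28 mice, with group and array class means subtracted (lower left) and with nothing subtracted (upper right), coloured from -1 (blue) to 1 (red). The column of negative Rgs5 values at the upper right has no counterpart in the bottom row, which runs from -0.43 to 0.33.

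Other genes of the vessel wall were taken from 7 lists: endothelial and mural markers, endothelial transcription factors, BMP and TGF-beta signalling, coagulation, junctions, and growth factor and Notch signalling. Of their genes other than the 8, 91 passed the filter. In the averaged seizure contrast 1 of 91 rose and none fell by limma (1.1% against 0.408% of all probe sets), 44 had a negative and 47 a positive change, and the median was 0.0111, near that of all probe sets (0.0122). Among 23 other endothelial markers none passed, 13 were positive and 10 negative, and the median was 0.0291. The 10 other mural markers had a median of 0.0413, and none passed.

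Pecam1, the platelet-endothelial adhesion molecule, was at -0.16, Cdh5, the cadherin of endothelial junctions, at -0.05, Flt1, a VEGF receptor, at 0.03 and Slc2a1, the glucose carrier of the barrier, at 0.28 in this contrast, with adjusted p of 0.827 or more. The endothelial marker with the smallest p was Ramp2, a receptor partner for adrenomedullin, at -0.43 ± 0.12 (limma adjusted p = 0.161). Its changes were -0.64 in alpha7 +/T, -0.14 in beta4 null and -0.52 in wild-type mice. Abcg2, an efflux pump, and Cav1, of caveolae, followed at 0.22 ± 0.12 and 0.26 ± 0.16. None of these markers passed.

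Among 10 other endothelial transcription factors, Klf4, a Krüppel-like factor that many cell types express, rose by 0.96 ± 0.19 (adjusted p = 0.0117). Sox17, a SoxF factor like Sox18 and Sox7, was at -0.45 ± 0.16 (adjusted p = 0.378), with -0.72 in alpha7 +/T, -0.10 in beta4 null and -0.53 in wild-type mice. Hey1, a Notch target, was at -0.33 ± 0.13 (adjusted p = 0.479). Neither passed. Sox7, which was also on the list and passed the filter, had a larger p than both.

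Of 16 other BMP and TGF-beta genes none passed, with a median of 0.0453. Smad6, an inhibitor that BMP induces, was at -0.35 ± 0.15 (adjusted p = 0.515), Id2 at 0.22 ± 0.12 and Ski, a Smad corepressor, at 0.09 ± 0.07. Id1, the nearest relative of Id3 as a BMP target, was at 0.00147. Coagulation genes were led by F3, the tissue factor that starts clotting, at 0.25 ± 0.08 (adjusted p = 0.341), Pros1, an anticoagulant cofactor, at -0.22 ± 0.11 and Plat, the tissue plasminogen activator, at 0.17 ± 0.11. The junction gene with the smallest p was Jam3 at -0.27 ± 0.11 (adjusted p = 0.488), followed by Jup at 0.14 ± 0.14 and Cldn11, the claudin of myelin, at 0.14 ± 0.17. In the growth factor and Notch list Vegfb was at -0.20 ± 0.14, Dll1 at -0.52 ± 0.37 and Nrp1 at -0.13 ± 0.09. None of these passed.

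Mural genes were led by Rgs4, like Rgs5 a regulator of G protein signalling but also a neuronal gene, at 1.4 ± 0.68 (adjusted p = 0.574). Acta2 and Tagln, of smooth muscle, were at 0.16 ± 0.12 and 0.18 ± 0.14. In untreated alpha7 +/T against untreated wild-type mice, Acta2 was lower by limma, at -0.62 ± 0.19 (adjusted p = 0.0319). In that contrast 19 of 91 vascular genes passed, 7 higher and 12 lower (20.9%, against 16% of all probe sets). Its calls over all probe sets fell from 1177 to 102 with title prefix as a covariate, and to 3 on high-ratio arrays alone. The genes below are given for the main setting only. Higher were Bsg (1.57), Epas1 (1.3), Id1 (0.81), Cd34 (0.72), Bmp4 (0.66), Anxa5 (0.62) and Pdgfa (0.41). Lower beside Acta2 were Anxa2 (-1.22), Smad4 (-0.93), Efnb2 (-0.76), Id4 (-0.74), Smad1 (-0.67), Tjp1 (-0.67), Pdgfra (-0.65), Abcg2 (-0.63), Id2 (-0.58), Gja1 (-0.58) and Hif1a (-0.55).

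**Figure D4:**
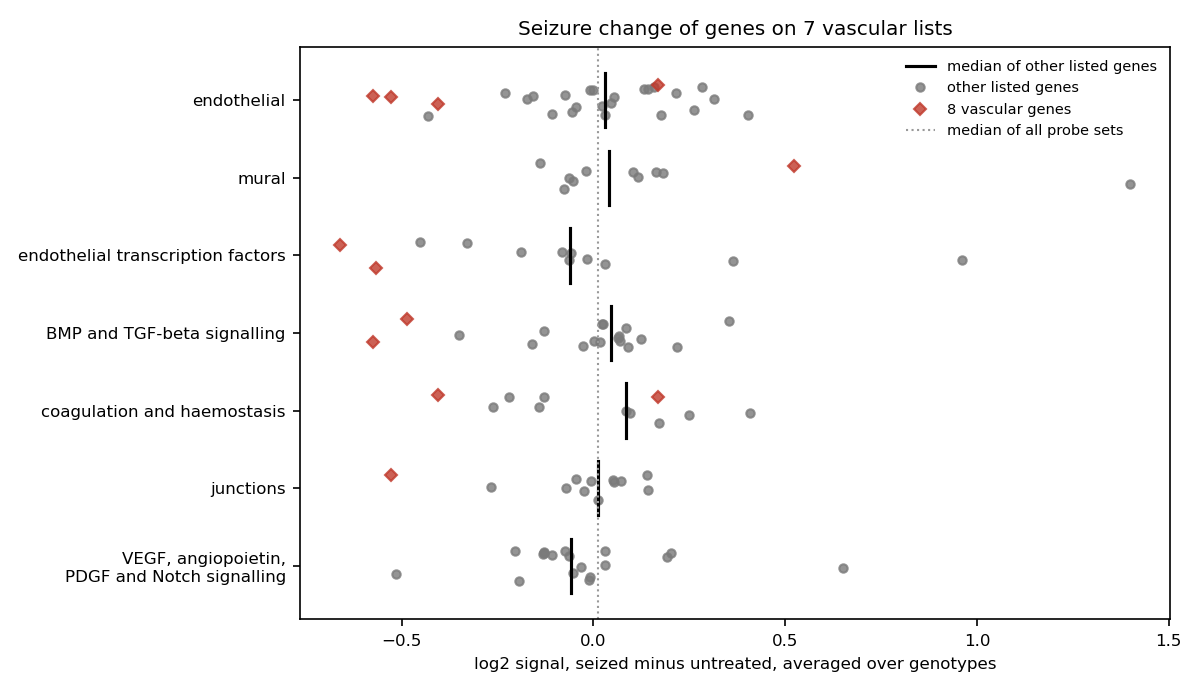
Seizure change averaged over genotypes (seized minus untreated, log2 signal) of genes on 7 vascular lists, the 8 genes as red diamonds and other genes as grey points, with the median of the others as a black bar and that of all probe sets as a dotted line. The medians of the other genes lie between -0.061 and 0.084, and the red diamonds lie left of 0 except those of Thbd and Rgs5.

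Lists of other cell types were run to see what else the tissue samples held. Irf8, a transcription factor of microglia, fell by 0.575 over the average (limma adjusted p = 0.0488), where 0.0816% of all probe sets were called lower. In alpha7 +/T mice it fell by 0.897 (adjusted p = 0.0236), where 1.09% were. Its averaged call was lost on high-ratio arrays alone, with age as a covariate and with median centring. The other 10 microglial genes did not pass. Gad1, the GABA-making enzyme of inhibitory neurons, rose by 0.40 in alpha7 +/T mice (adjusted p = 0.00989). In untreated alpha7 +/T against untreated wild-type mice, Mag of myelin (1.53), Syp of synapses (1.14), C1qc of microglia (0.90) and Slc6a13 of the meninges (0.46) were higher by limma. Dcn of fibroblasts was lower (-0.64). Over all probe sets, that contrast lost most of its calls on high-ratio arrays alone and with title prefix as a covariate. No gene on the lists of fibroblasts, red blood cells, astrocytes, oligodendrocytes or choroid plexus passed in a seizure contrast. Red blood cell sums, a gauge of blood left in the brain, were 4121 to 8772 in seized mice and 3969 to 8842 in untreated mice, so the groups overlapped almost fully.

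The genes whose mouse-to-mouse variation was most like that of Cldn5, after group and class means were subtracted and over 28 mice, were Pim3 (r = 0.899), Eif2b5 (0.878), Rtn2 (0.851), Ssbp4 (0.848) and Cdk9 (0.848). For Sox18 they were Gstm5 (0.778), Galnt10 (0.762), Cndp2 (0.742), Tcte1 (0.741) and Pex14 (0.734), and for Rgs5 Nfic (0.701), Ncbp1 (0.688), Eya2 (0.677), Crem (0.662) and Colq (0.662). None of the 15 is on the endothelial or mural list. Each set was the highest of about 6660 named probe sets, and all share the arrays' scaling and RNA, so these values are a description. Against Cldn5, Eng had 0.595, the 2 Sox18 probe sets 0.103 and 0.375, and the second Rgs5 probe set 0.503, all below the 5 genes named.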

How the data were processed

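The authors deposited linear probe set intensities, and the submitters' processing notes name MAS5, with no version. Each array's trimmed mean was 150.08 to 150.1 and its median 43.6 to 61.1. Each array held the whole brain RNA of 1 mouse, so replicates are animals, and precision is limited by how many arrays a group has. No 2 arrays held identical values.

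Here the intensities were taken to log2. A probe set was kept when it was above its own array's median in at least 3 of 28 arrays, which kept 7350 of 12422. Genes were named where the platform annotation gives 1 symbol (10833 probe sets, against 396 with several and 1193 not listed). limma 3.58.1 in R 4.3.3 fitted 6 group means over all 28 arrays with a mean-variance trend, and p-values were two-sided and adjusted over 7350 probe sets (Benjamini-Hochberg, threshold 0.05). This test was checked on simulated data. Correlations and their permutation tests used Python 3.11.15 with scipy 1.17.1.

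All 13 probe sets of the 8 genes were accounted for. Other genes were named where they passed the threshold on a list in any comparison, or else as up to 3 of the list with the smallest p in the averaged seizure contrast. Pecam1, Cdh5, Flt1, Slc2a1 and genes named beside a passing one of their list are outside this rule and were named after their values were seen. For likeness, the 5 genes with the highest r were named for Cldn5, Sox18 and Rgs5. Sequences are credited to RefSeq. The genes, the 14 lists and the tests were chosen with earlier results of these data known. The alternatives were quantile and median scaling, filters, array class, age, title prefix, array weights, subsets of mice and leaving out each mouse. Array class together with age, and age removed from the correlations, were added after seeing the data.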

Additional observations from a re-analysis of the deposited data

Results flagged for a closer look

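Sox18 (second probe set) had a signal of 78.8 in seized beta4 null mouse 2, far from the other 3 mice of its group at 64.8 to 66.4, with a gap of 0.878 of the group's range. Of 50 sets of values tested in this way (10 probe sets in each of 5 groups of 4 to 6 mice) it was the 1 flagged, where chance flags about 1 in 20. The mouse was still below every untreated beta4 null mouse.

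Thbd (brighter probe set) was higher in every seized wild-type mouse and lower in every seized beta4 null mouse than in any untreated mouse of the genotype. The F test of the difference between genotypes gave 7, which did not pass over all probe sets (limma adjusted p = 0.385).

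Rgs5 (brighter probe set) was higher in all 5 seized alpha7 +/T mice than in untreated ones, and seized wild-type mice had 55 to 66 against 60 to 76 in untreated ones. Its F was 5.08 (limma adjusted p = 0.493), and all values above 75.8 were on low-ratio arrays.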

How the results depend on the processing

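The counts of probe sets past the threshold were 30 (averaged), 206 (alpha7 +/T), 1 (beta4 null), 4 (wild-type), 2 (difference between genotypes), 1177 (untreated alpha7 +/T against wild-type) and 1 (untreated beta4 null against wild-type). In that order of contrasts, leaving out those that moved by no more than 1.5 times, median centring gave 134 for alpha7 +/T, 2 for beta4 null and 1 for the difference. No filter gave 0 for beta4 null. Array class as a covariate gave 51, 978, 4, 33 (difference) and 669 (untreated alpha7 +/T). Age as a covariate gave 19, 12, 0, 0 (difference) and 561 (untreated alpha7 +/T), and title prefix gave 102 for the last. Mice of 7 weeks or older gave 10, 8, 0, 0 (wild-type), 4 (untreated alpha7 +/T) and 0 (untreated beta4 null). High-ratio arrays alone gave 12, 13, 0, 9 (wild-type), 0 (difference) and 3 (untreated alpha7 +/T), and low-ratio arrays alone 91, 682, 5 and 89 (difference). Array weights gave 645 (averaged), 21 (beta4 null) and 35 (wild-type). Array class with age, added after seeing the data, gave 84, 4, 4 (difference) and 448 (untreated alpha7 +/T). Low-ratio arrays hold no wild-type mouse, so their average is over the 2 mutant genotypes, and they gave no other value. Median centring moved every probe set by 0.24 between the untreated alpha7 +/T and wild-type groups and gave 191 higher and 1256 lower there, against 568 and 609.

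Leaving out each mouse in turn gave 18 to 68 (averaged), 77 to 670 (alpha7 +/T), 0 to 1 (beta4 null), 0 to 5 (wild-type), 0 to 32 (difference), 60 to 2041 (untreated alpha7 +/T) and 1 to 1 (untreated beta4 null). The extremes 68, 670, 32 and 2041 came without untreated alpha7 +/T mouse 5, 77 and 60 without untreated alpha7 +/T mouse 3, and 18 without seized wild-type mouse 1. The number of pairs that passed was 0 to 0, and 1 with class means not subtracted.

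Some small differences changed sign, and the cause was not tested. Between untreated alpha7 +/T and wild-type mice Thbd was -0.126 with quantile scaling and -0.148 with median centring, Lyl1 -0.00658 with median centring, and Id3 -0.329 and Sox18 -0.0335 among mice of 7 weeks or older. Eng there was -0.227 with median centring, -0.0895 with age, -0.213 with title prefix and -0.0573 among mice of 7 weeks or older. In untreated beta4 null against wild-type mice Id3 was -0.0539 with median centring, and Sox18 0.00753 with class, 0.00551 with age and 0.0323 with both. Rgs5 there was -0.178 with class, -0.215 on high-ratio arrays, -0.0296 with array weights and -0.194 with class and age. Cldn5 was 0.0235 with title prefix and 0.0185 among mice of 7 weeks or older, and Vwf 0.0333 on high-ratio arrays. Cldn5 with Rgs5 had r = 0.25 on high-ratio arrays and 0.0793 with class means not subtracted, and Eng with Cldn5 had -0.0662 on low-ratio arrays. Leaving out each mouse gave -0.0958 to 0.047 for Sox18 (untreated beta4 null), -0.0718 to 0.105 for Eng and -0.0346 to 0.256 for Thbd (untreated alpha7 +/T), and -0.275 to 0.0791 for Cldn5 with Rgs5. No paired analysis was possible because the labels give the groups no shared replicate numbers.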
